A study of Sus scrofa with 45 samples.

Results

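Cytosolic ribosomal proteins form, with ribosomal RNA, the small subunit of the ribosome, which reads the message, and the large subunit, which joins the amino acids. Their messages share a start of pyrimidine bases through which growth signals set their translation, and they are among the most abundant messages of blood cells. Maturing red cells are known to be sensitive to the loss of single ribosomal proteins such as RPS19, RPL5 and RPL11. The ribosomal protein probes described here are the noncontrol probes of a porcine oligonucleotide array whose gene name begins with RPL or RPS and a digit, or whose description holds the words ribosomal protein, leaving out those described as mitochondrial or as a kinase. They number 153 of the 43603 probes on the array.

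The study fed male specific pathogen-free Clawn miniature pigs a control diet, a diet rich in fat and cholesterol (HFCD) or the latter with much sucrose added (HFCSD), to follow gene expression in blood while hyperlipidemia developed. Whole blood (WB) was taken into PAXgene tubes after 10, 19 and 27 weeks of feeding, and white blood cells (WBC) were isolated with the LeukoLOCK kit at 27 weeks. The pigs were 12 weeks old when feeding began. The paper describes repeated blood sampling and fewer pigs per diet than arrays in any pair of its groups, so these groups share pigs. The labels do not say which samples of different weeks came from the same pig, and the main fits were unpaired. Samples with the same replicate number had a median correlation of 0.22 between weeks and 0.14 between WB and WBC. For other numbers these were -0.09 and -0.06. Between diets, where no pig is shared, the medians were -0.016 and 0.015. The ranges overlapped. Total RNA was labeled with Cy3, and each of the 45 samples was hybridized to its own array.

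The 12 groups were WB of control, HFCD and HFCSD pigs at 10 weeks (4 arrays each), at 19 weeks (4 control, 4 HFCD and 3 HFCSD arrays) and at 27 weeks (4 control, 3 HFCD and 3 HFCSD arrays), and WBC of control, HFCD and HFCSD pigs at 27 weeks (4 arrays each). All levels below are log2 intensities after quantile normalization, which gives every array the same distribution, so a level is relative to the other probes of its array and says nothing of the total RNA. The image software called 35.4% to 53.3% of an array's probe spots well above background. The number of arrays per group, 3 or 4, limits the precision, which the standard errors (SE) of the fitted log2 changes give. In blood, a lower level through fewer cells of a type and through less RNA per cell cannot be told apart.

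The rule on names collected probes of 3 kinds. Of the 153 probes, 62 came from pig sequences named as a ribosomal protein, and 52 came from pig contigs matched to a vertebrate ribosomal protein. The remaining 39 came from contigs whose description names a short or partial match to a ribosomal protein, mostly of a bacterium, plant or protist. Of these kinds 56 of 62 (90.3%), 26 of 52 (50%) and 9 of 39 (23.1%) lay well above background on all 45 arrays, against 27.7% of all probes, and 1 (1.61%), 13 (25%) and 14 (35.9%) on none, against 31.2%. The median level of the third kind, the distant matches, was 2.94, near the 3.04 of all probes. A level does not show which message a probe measures. The distant matches are named below by probe alone, and their counts are given apart where they bear on a result.

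The 114 probes of the first 2 kinds stood for 51 genes, 19 of the small subunit (51 probes) and 32 of the large subunit (63 probes). All 3 stalk genes were on the array: RPLP0, RPLP1 and RPLP2, whose proteins stand out from the large subunit and bind elongation factors. The paralog RPL26L1 was there too. Among the genes without a probe under the rule were RPS27A, RPL13A, RPL22 and FAU.

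Many ribosomal protein probes were among the brighter ones of the array, though intensities of different probes do not rank messages. In all, 91 of the 153 probes lay well above background on all 45 arrays, 28 on none and 34 on some, and an array detected 98 to 115 of them. The 91 were 35 of the small subunit, 47 of the large and 9 distant matches. The median level of the 153 was 9.31. Among the 100 most intense probes of the array, 22 were ribosomal protein probes of 16 genes, led by both RPLP2 probes, and 69 were among the 1000 most intense. These top ranks matter for the scale: RPS23 A_72_P254247 ranked between 3 and 126 over the arrays, and a probe near the top of a quantile-normalized array has little room to rise.

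The mean level of the 91 probes detected on every array was computed for each array. In WB the arrays at 10 weeks measured 13.27, 12.95, 13.20 and 12.87 in control, 13.20, 13.02, 13.12 and 13.18 in HFCD and 13.12, 12.86, 13.22 and 13.16 in HFCSD pigs. At 19 weeks these were 13.22, 13.19, 13.17 and 13.21 in control, 13.58, 13.14, 13.20 and 13.34 in HFCD and 13.29, 13.48 and 13.52 in HFCSD pigs, and at 27 weeks 13.20, 13.21, 13.51 and 13.45 in control, 13.47, 13.04 and 13.43 in HFCD and 13.17, 13.30 and 13.42 in HFCSD pigs. The groups of a given week overlapped, apart from the 19-week HFCSD arrays, which all stood above the control arrays. That separation was lost with scaling to the 75th percentile in place of quantile normalization. The 19-week HFCSD arrays then measured 6.82, 6.63 and 7.20 and the control arrays 6.68, 6.71, 6.62 and 6.59. With quantile normalization the group mean (SD) at 10 weeks was 13.07 (0.19) for control, 13.13 (0.08) for HFCD and 13.09 (0.16) for HFCSD. At 19 weeks these were 13.20 (0.02), 13.31 (0.20) and 13.43 (0.12), and at 27 weeks 13.34 (0.16), 13.31 (0.23) and 13.30 (0.13).

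The WBC levels lay apart by diet under quantile normalization. The control arrays measured 13.38, 13.34, 13.45 and 13.32, the HFCD arrays 13.54, 13.61, 13.52 and 13.49 and the HFCSD arrays 13.61, 13.62, 13.68 and 13.69. The control arrays were the lowest, and the HFCD and HFCSD arrays met at 13.61. Their group means (SD) were 13.37 (0.06), 13.54 (0.05) and 13.65 (0.04). No test was made on this mean, since its probes were chosen with results known. With scaling to the 75th percentile in place of quantile normalization, the level relative to the mean of the 45 arrays moved to -0.37 for WB HFCD at 10 weeks, to -0.09 for WB control at 19 weeks, to 0.34 for WB HFCSD at 27 weeks and to 0.24 for WBC HFCSD. The WBC arrays then stood at 6.54, 6.58, 6.95 and 6.94 in control, 6.74, 6.79, 7.09 and 7.07 in HFCD and between 6.95 and 7.01 in HFCSD pigs, where HFCD overlapped both and the highest control array lay just under the lowest HFCSD array. The order of the WBC group means stayed the same, as did that of the WB group means at 19 weeks. The order of the WB group means at 10 weeks and at 27 weeks depends on the scaling.

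Several genes had more than 1 probe: 33 genes had at least 2 and 19 at least 3. Of the 111 pairs of probes of the same gene, 22 pairs shared a run of 15 or more bases, 87 shared none and 2 lay on opposite strands. Overlapping probes are no independent evidence. Between WBC and WB of control pigs their fitted changes differed by a median of 0.19, against 0.59 for pairs that share no run. The probes of RPL10A show such an overlap, printed with the 50 shared bases in capitals.
RPL10A A_72_P240262: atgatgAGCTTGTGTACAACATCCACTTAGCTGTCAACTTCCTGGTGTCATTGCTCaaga
RPL10A A_72_P128866: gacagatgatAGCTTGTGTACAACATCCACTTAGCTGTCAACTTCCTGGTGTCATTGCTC
Their fitted differences were 0.34 and 0.18. Likewise 38 bases, in capitals, are common to a pair of RPL6 probes, with differences of -0.02 and 0.12, none of the 4 past the threshold.
RPL6 A_72_P420374: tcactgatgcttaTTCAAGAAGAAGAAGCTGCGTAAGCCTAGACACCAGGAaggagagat
RPL6 A_72_P293449: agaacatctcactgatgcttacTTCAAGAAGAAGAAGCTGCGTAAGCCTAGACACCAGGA

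Pairs without a shared run could differ widely, and the probe of a gene decides what is measured. RPS6, the small-subunit protein that S6 kinase phosphorylates, had 4 probes, of which these 2 share no run and lie in its coding sequence.
RPS6 A_72_P115986: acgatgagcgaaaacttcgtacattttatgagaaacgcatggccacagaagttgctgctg
RPS6 A_72_P131691: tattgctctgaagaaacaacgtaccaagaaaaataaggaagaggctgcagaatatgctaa
In control pigs the first changed by 1.27 (SE 0.26, adjusted p = 6.4e-04) between WB and WBC, and the second had a difference of -0.10 (SE 0.21, adjusted p = 0.711). RPS28 showed the strand: its probe A_72_P327878 is the reverse complement of 49 bases of A_72_P146681 and of 43 bases of A_72_P251517, so it reads the opposite strand. In HFCSD pigs this probe fell by 1.65 while those of the sense strand rose by 1.52 and 1.35. For RPL39, RPL37, RPL27, RPL35, RPS6 and RPS28 some probes were higher and others lower, both past the threshold, in at least 1 comparison of WBC with WB.

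The first comparison asks how WBC differ from WB of the same diet at 27 weeks. Isolation removes most red cells, so the samples differ in cell content, and kit and scan day differ with them too: all WBC arrays were scanned on a day of their own. Cell type, kit and day cannot be told apart. Of 110 ribosomal protein probes tested in control pigs (those well above background on all usable arrays of at least 1 of the groups compared), 37 passed an adjusted p of 0.05, 18 higher and 19 lower in WBC. This is 33.6%, below the 45.3% of all probes tested. In HFCD pigs 42 of 110 passed (38.2%, against 47.5% of all probes), 29 higher and 13 lower, and in HFCSD pigs 61 of 112 (54.5%, against 58.8%), 42 higher and 19 lower. Each share was below that of the whole array, but in HFCSD pigs it turned to above with normexp background correction (58.0% against 56% of all probes) and with each array's percent of bright spots as a covariate (34.8% against 31.4%). Without a filter on dim probes it was above in each diet: 23.5% against 21% in control, 25.5% against 22% in HFCD and 38.6% against 30.8% in HFCSD pigs.

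Their median change was 0.05 in control pigs (-0.025 with scaling to the 75th percentile), 0.22 in HFCD and 0.44 in HFCSD pigs, beside 0.17, 0.19 and 0.42 over all probes tested. That scaling moved the median of all probes by 0.14 in control and 0.19 in HFCD pigs, and background correction by normexp moved it by -0.19 in HFCSD pigs. Relative to all probes, the members' median was -0.12, 0.03 and 0.02 as reported and turned to -0.33, -0.18 and -0.42 with the 75th percentile. The split of the calls depends on it too: with that scaling 17 were higher and 28 lower in control pigs, and 19 higher and 31 lower in HFCSD pigs, in place of 18 and 19 and of 42 and 19, while in HFCD pigs there were 27 and 14 in place of 29 and 13. Of all probes tested, 50.6%, 55.8% and 60.2% passed with that scaling in control, HFCD and HFCSD pigs. No direction for the proteins as a family can be given from this comparison.

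In the small subunit, 10 probes were higher and 5 lower of 42 tested in control pigs, 16 and 0 of 42 in HFCD pigs, and 20 and 4 of 43 in HFCSD pigs. In the large subunit without the stalk these were 5 and 9 of 48, 10 and 7 of 48, and 20 and 7 of 48. None of the 4 stalk probes tested passed in any diet by limma; the RPLP2 probes, for instance, had differences of -0.22 and -0.10 in control pigs and 0.04 and 0.20 in HFCSD pigs. Of the distant matches, 3, 3 and 2 were higher and 5, 6 and 8 lower, of 16, 16 and 17 tested.

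Passing in all 3 diets were 27 of the 109 probes tested in each, 16 higher and 11 lower in WBC, 24.8% against 33.7% of all probes. The diets' comparisons use different arrays but share the day and kit. Of the 16 higher, 14 were of the named genes RPL39, RPL4, RPL5, RPS16, RPS20, RPS23, RPS28, RPS3 and RPS6. Among these, a probe each of RPS16 and RPS23 turned to below 0 in control pigs with the 75th percentile (-1e-04 and -0.19). Other calls of these genes were lost in some alternative fits. RPS28 A_72_P251517 lost its call in 1 of 32 in each diet, and RPS16 A_72_P328738 in 1 of 32 in HFCD and in HFCSD pigs. RPS23 A_72_P254247 did so in 1 of 32 in HFCD pigs. Among the 11 lower were probes of RPL27, RPL35 and RPL37 and 5 distant matches.

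RPL5, which binds the small ribosomal RNA of the large subunit together with RPL11 and can restrain the p53 regulator MDM2, was higher in WBC. Its probe is in the coding sequence and is shown because RPL5 is the gene that passed in both the comparison of WBC with WB and that of weeks in all diets, which share the 27-week WB arrays.
RPL5 A_72_P175321: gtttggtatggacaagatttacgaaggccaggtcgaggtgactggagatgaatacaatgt
In control pigs its WB arrays at 27 weeks measured 12.51, 13.24, 13.81 and 12.92 and its WBC arrays 15.22, 15.38, 15.19 and 14.32. In HFCD pigs WB measured 13.57, 12.19 and 12.65 and WBC 15.09, 15.03, 14.66 and 14.48, and in HFCSD pigs WB measured 12.46, 12.94 and 13.10 and WBC 14.36, 15.23, 15.07 and 14.94. Every WBC array lay above every WB array of its diet. The changes were 1.91 (SE 0.32, adjusted p = 9.8e-05), 2.01 (SE 0.35, adjusted p = 1.4e-04) and 2.07 (SE 0.35, adjusted p = 6.8e-05).

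RPL11, the partner of RPL5, did not follow it. Its intense probe A_72_P041441 had differences of -0.02, 0.30 and 0.33, none past the threshold, and A_72_P191886 fell by 0.78 in control pigs (adjusted p = 0.00656), with -0.46 and 0.37, not past the threshold, in the others. The test of whether the diets differ there did not pass.

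The small-subunit protein RPS28 stood at 15.86, 15.81, 15.93 and 15.80 in WB and 16.71, 16.67, 16.60 and 16.74 in WBC of control pigs, by the probe A_72_P146681. In HFCSD pigs the WB arrays measured 15.01, 15.40 and 15.58 and the WBC arrays 16.82, 16.91, 16.94 and 16.74. The groups did not overlap in either diet. The changes in control, HFCD and HFCSD pigs were 0.83 (SE 0.16, adjusted p = 4.4e-04), 1.17 (SE 0.18, adjusted p = 4.1e-05) and 1.52 (SE 0.18, adjusted p = 1.8e-06), and with the 75th percentile the control value shrank to 0.04 and the HFCSD value to 0.25, no longer past the threshold.

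RPS23, a protein near the decoding center, gave 16.34, 16.31, 16.45 and 16.20 in WB and 17.16, 17.08, 17.33 and 16.94 in WBC of control pigs by the probe A_72_P254247. The groups did not overlap. Its changes were 0.80 (SE 0.17, adjusted p = 9.3e-04), 0.91 (SE 0.19, adjusted p = 6.6e-04) and 1.41 (SE 0.19, adjusted p = 6.7e-06), but with the 75th percentile those of control and HFCSD pigs reversed, to -0.19 and -0.12. It is among the probes close to the top of the intensity range.

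RPS20 and RPL4, of the small subunit and of the wall of the exit tunnel, were higher in WBC. RPS20 was dim in WB: A_72_P290874 measured 2.33, 2.81, 3.18 and 1.59 in WB and 4.77, 4.37, 5.16 and 4.01 in WBC of control pigs, without overlap. No WB array of control or HFCSD pigs was well above background, so the change is a bound: the mean of the brighter group over the mean of the dimmer, taking on each dim array the higher of the probe's signal and the lowest signal among probes well above background. It was at least 2.13-fold in control (adjusted p = 2.8e-04) and at least 1.71-fold in HFCSD pigs (adjusted p = 1.6e-06). A probe given with a bound here or below was tested through its brighter group alone, and its adjusted p is no independent support. The same holds for a probe given as well above background on only some arrays of its dimmer group. In HFCD pigs, where 1 of 3 WB arrays was well above background, the fitted change was 1.86 (SE 0.43, adjusted p = 0.00159).

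RPL4 A_72_P361473, from a contig matched over 24% of its description's protein, measured 2.90, 3.92, 3.74 and 1.49 in WB and 5.16, 4.31, 5.21 and 5.21 in WBC of control pigs. All WBC arrays were above the WB arrays, and WBC replicate 2 was the lowest of them. Its changes were 1.96 (SE 0.43, adjusted p = 0.00105) and 2.65 (SE 0.46, adjusted p = 1.5e-04) in control and HFCD pigs, where 2 of 4 and 1 of 3 WB arrays were well above background, and at least 2.74-fold in HFCSD pigs (adjusted p = 2.3e-06).

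RPS3, which lines the channel where the message enters, rose by A_72_P382983: 1.72 (SE 0.53, adjusted p = 0.0119) in control and 1.65 (SE 0.57, adjusted p = 0.0221) in HFCD pigs, with 2 of 4 and 2 of 3 WB arrays well above background, and at least 3.2-fold in HFCSD pigs (adjusted p = 1.2e-04). Its most intense probe A_72_P030796 had 0.36 (SE 0.17, adjusted p = 0.0893) in control pigs and rose by 0.61 (SE 0.18, adjusted p = 0.00951) in HFCD and 0.84 (SE 0.18, adjusted p = 6.7e-04) in HFCSD pigs, values that the 75th percentile turned to -0.09 and -0.58. RPS6 A_72_P115986 was higher in all 3 diets, by 1.27, 1.13 and 0.68, the last lost in 16 of 32 alternative fits, while A_72_P104446, bright and with 30 bases on the opposite strand of another probe, fell by 0.51 in control pigs. RPL39, a short protein of the exit tunnel, rose by 0.76, 1.12 and 1.28 by A_72_P251237, while its probe A_72_P359908 fell by 2.40 in control and 1.11 in HFCD pigs, the latter lost in 20 of 32 alternative fits.

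RPL37 showed probes of a single gene going apart. Its probe A_72_P357413 measured 4.47, 4.15, 3.89 and 5.85 in WB and 2.33, 1.85, 2.83 and 2.96 in WBC of control pigs. The ranges did not overlap, and no WBC array was well above background in any diet. WB was at least 2.44-fold higher in control, 5.31-fold in HFCD and 7.73-fold in HFCSD pigs (adjusted p = 0.0072, 1.1e-04 and 4.4e-05). This probe was tested through its WB arrays alone, so these p values are no independent support. RPL37 A_72_P031251 rose by 0.66 in HFCD and 0.64 in HFCSD pigs, the latter turning to -0.58 with the 75th percentile. Likewise RPL27 A_72_P227992 fell by 1.23, 1.40 and 0.91 in control, HFCD and HFCSD pigs. RPL27 A_72_P086246 rose by 0.63 in HFCD and 1.12 in HFCSD pigs, the latter -0.03 with the 75th percentile. A_72_P227992 shares 23 bases with A_72_P416848 and 21 with A_72_P429184, probes not named RPL27. Which message it measures is therefore not settled.

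RPSA, a small-subunit protein also known as a laminin receptor, changed in control pigs by -0.65 (SE 0.14, adjusted p = 9.9e-04) for A_72_P209232 and -0.42 (SE 0.14, adjusted p = 0.0177) for A_72_P004916, while A_72_P004351 had 0.32 (SE 0.23, adjusted p = 0.28). RPL3, at the peptidyl transferase center, had a difference of -0.11 in control pigs and rose by 0.51 in HFCSD pigs by A_72_P436964, which turned to -0.35 with the 75th percentile. RPL10, needed to join the subunits, rose by 0.47 in control and 0.46 in HFCSD pigs by A_72_P061141, against -0.0023 and -0.49 with that scaling. RPS19, a gene of inherited anemia, did not pass, with 0.68, -0.06 and -0.35.

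The distant match A_72_P282729 was lower in WBC in all 3 diets. In control pigs WB measured 4.95, 4.72, 4.11 and 6.59 and WBC 1.59, 1.51, 1.63 and 1.55, without overlap and with no WBC array well above background, so WB was at least 3.46-fold higher (adjusted p = 1.5e-06). In HFCD and HFCSD pigs it was at least 3.03-fold and 8.39-fold higher (adjusted p = 4.8e-06 and 2.3e-07). What its contig encodes is not known from the files.

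Some cell type markers passed in the same comparison. Of the erythroid list, 4 of 35 genes were on the array with 6 probes, HBE1 being the most intense. The summed level of a list is the log2 of the summed intensities of its probes, so its brightest probes weigh most. The summed erythroid level was 14.67 (0.72) in WB and 13.44 (2.40) in WBC of control pigs (mean and SD). It was 14.84 (0.48) and 12.93 (1.89) in HFCD pigs, and 15.81 (0.23) and 13.36 (0.98) in HFCSD pigs. Of 4 erythroid probes tested, 2 fell in each diet. WBC erythroid levels varied widely between arrays, from 9.87 to 14.82 in control pigs.

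Of the T cell list (8 of 20 genes, 14 probes, CD3D the most intense) 9, 6 and 9 of 13 probes tested rose in control, HFCD and HFCSD pigs and none fell, and its summed level went from 13.14 (0.22) to 13.66 (0.23) in control pigs. CD3D A_72_P185936, part of the T cell receptor complex, rose by 1.90 (SE 0.39, adjusted p = 6.7e-04) in control pigs, while its brighter probe A_72_P014531 had -0.13 (SE 0.19, adjusted p = 0.6), not past the threshold. Both NK cell probes rose in each diet, KLRK1 by 1.38 and PRF1, the pore-forming perforin, by 2.25 in control pigs. Of the monocyte list (6 of 12 genes, 11 probes, LYZ the most intense) 4, 2 and 2 probes rose, of 10, 9 and 9 tested, and its summed level in control pigs went from 13.68 (0.28) to 14.77 (0.85).

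Neutrophil markers (7 of 28 genes, 8 probes) went both ways in control pigs, with 2 of 8 higher and 2 lower: PGLYRP1 and ARG1, proteins of neutrophil granules, fell by 3.29 and 3.02, and TREM1 and NCF1 rose by 1.66 and 1.89. In HFCD pigs 1 was higher and 3 lower, and in HFCSD pigs 0 higher and 3 lower, of 8. The summed neutrophil level in control pigs was 15.31 (0.28) in WB and 14.92 (0.48) in WBC. The 4 platelet probes (ITGA2B the most intense) did not pass in any of these 3 comparisons by limma, so that list has no call to set beside the members. Liver markers were measured as a check: 10 of 15 genes were on the array with 19 probes, ALB, AMBP, APOB, FGG and TTR were not detected on any array, and TF was the most intense. Of 5 liver probes tested, 0 passed in control pigs, 1 rose and 1 fell in HFCD pigs and 1 rose and 2 fell in HFCSD pigs, among them APOC3 at -2.75 in HFCSD pigs. The part of cell content in the ribosomal protein values was not tested.

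Messages translated together with those of ribosomal proteins were also compared. Of translation factors and other messages with a pyrimidine start, 10 of 51 genes were on the array with 37 probes, TPT1 the most intense. Of 36 tested, 24 rose and 2 fell in control, 17 and 2 in HFCD, and 23 and 2 in HFCSD pigs, with medians of 0.82, 0.70 and 0.84; the medians stayed above 0 under each scaling. EIF4A2, a helicase of initiation, rose by 2.39 (SE 0.32, adjusted p = 8.7e-06) and HNRNPA1, a splicing protein, by 1.82 (SE 0.23, adjusted p = 5.3e-06) in control pigs, while TPT1 fell by 0.99 and 0.95. Ribosome assembly had 2 genes of 40, MYC and NIP7, with 3 probes, of which 1 rose in each diet, NIP7 by 0.76 in control pigs by A_72_P146776 and by 1.15 in HFCD and 1.64 in HFCSD pigs by A_72_P305379. In the S6 kinase and mTOR pathway (2 of 24 genes, 2 probes) RPS6KB1, which phosphorylates RPS6, rose by 0.67, 0.66 and 1.25, and FRAP1, the mTOR kinase, fell by 1.76 in HFCSD pigs. The translocon list had 1 gene of 16, SEC62, of whose 3 probes 2 fell in control, 1 in HFCD and 3 in HFCSD pigs. Of 21 mitochondrial ribosomal protein probes, 3 of 13, 3 of 14 and 3 of 15 rose, and 1 fell in HFCSD pigs.

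The second comparison asks what each diet did against the control diet of the same week and sample type. Of the 8 comparisons, 7 gave no ribosomal protein probe past the threshold by limma. For HFCD in WB at 10 weeks 0 of 107 passed (background 0.0281% of all probes), with 2 higher and 5 lower at an unadjusted p under 0.05 (6.54% against 10% of all probes); for HFCSD, 0 of 101 (0.0123%), with 2 and 1 (2.97% against 1.73%). At 19 weeks HFCD gave 0 of 104 (0.0181%), with 1 higher and 2 lower unadjusted (2.88% against 12.5%), and HFCSD 0 of 105 (0.0175%), with 9 and 1 (9.52% against 11.9%). At 27 weeks HFCD gave 0 of 106 in WB (0.0165%), with 1 and 0 (0.943% against 5.55%), and 0 of 107 in WBC (0.0276%), with 6 and 1 (6.54% against 4.73%), and HFCSD gave 0 of 109 in WBC (0.0366%), with 29 and 1 (27.5% against 11.3%). The per-probe test that the methods name, adjusted over all probes, gave 0 in each of these 7 as well. So few probes of the whole array passed that these counts of 0 do not set the members apart.

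The median changes at 10 weeks were 0.10 for HFCD and -0.02 for HFCSD, beside 0.09 and -0.01 over all probes; the first turned to -0.16 with the 75th percentile. At 19 weeks they were 0.06 and 0.18, beside -0.03 and 0.04, and kept their sign under each scaling. In WB at 27 weeks HFCD gave -0.06 beside -0.03. In WBC at 27 weeks they were 0.20 for HFCD and 0.26 for HFCSD, beside 0.02 and 0.01 over all probes, and stayed above 0 under each scaling, the lowest being 0.16 and 0.19.

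In WBC, the HFCSD values leaned above 0 without passing. Of 109 probes tested, 93 had a value above 0 (85.3%, against 51.5% of all probes), and 27.5% had an unadjusted p under 0.05, against 11.3% of all probes. Those above 0 were 40 of 43 small-subunit probes, 42 of 47 large-subunit probes and 3 of 4 stalk probes, against 8 of 15 distant matches; for HFCD they were 38 of 42, 39 of 47, 3 of 4 and 7 of 14. These probes are not independent of each other, and the comparisons of both diets use the same control arrays.

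The lowest adjusted p among them was that of RPS25, a small-subunit protein not needed for growth in yeast, singled out after its values were seen. Its WBC arrays measured 6.26, 6.36, 6.70 and 6.33 in control and 7.18, 6.94, 7.31 and 7.72 in HFCSD pigs. All HFCSD arrays were above the control arrays. The difference was 0.87 (SE 0.21, adjusted p = 0.272), not past the threshold. RPL11 A_72_P191886 had 0.92 (SE 0.25, adjusted p = 0.281) and RPL12 A_72_P314258 0.74 (SE 0.22, adjusted p = 0.303).

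At 19 weeks RPL5 had the largest value for HFCSD in WB. The control arrays measured 13.42, 13.15, 12.66 and 12.51, the HFCD arrays 14.01, 13.69, 13.58 and 13.60 and the HFCSD arrays 13.97, 14.60 and 13.59. The lowest HFCSD array was above the highest control array. The difference was 1.12 (SE 0.31, adjusted p = 0.257) for HFCSD and 0.79 (SE 0.28, adjusted p = 0.297) for HFCD, neither past the threshold. Control replicates 2 to 4 of this week were scanned on another day than replicate 1 and the diet arrays; within the shared day 1 control array remains.

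HFCSD in WB at 27 weeks was the diet comparison with calls: 6 of 107 probes passed, 5 higher and 1 lower. This is 5.61%, under the 10.6% of all probes, and 17 of 107 had an unadjusted p under 0.05 (15.9% against 32.2%), 11 higher and 6 lower; by the test the methods name, unadjusted, 8 were higher and 18 lower. Without a filter on dim probes 2 passed, and the share turned to above (1.31% against 1.04%). The members' median was -0.05 beside -0.21 over all probes and turned to 0.23 with the 75th percentile, where 5 were higher and 2 lower, as with normexp. The 6 were a probe of RPS6, 1 probe of the large subunit, which was higher, and 4 distant matches.

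RPS6 A_72_P115986 measured 9.56, 10.43, 10.36 and 10.49 in control, 11.26, 10.20 and 10.52 in HFCD and 11.20, 11.39 and 11.66 in HFCSD pigs. All HFCSD arrays were above the control arrays, of which replicate 1 was the lowest. The change for HFCSD was 1.21 (SE 0.31, adjusted p = 0.0376), and the other RPS6 probes had -0.05, 0.14 and 0.27, none past the threshold.

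The distant match A_72_P003561 was not well above background on any control array (1.81, 2.10, 2.18 and 3.62) and measured 5.95, 4.88 and 5.08 in HFCSD pigs, at least 3.54-fold higher (adjusted p = 0.0158). The groups did not overlap. A_72_P113626 rose by 2.51 (SE 0.62, adjusted p = 0.034) and A_72_P207912, well above background on 2 of 4 control arrays, by 1.89 (SE 0.36, adjusted p = 0.0205), and A_72_P334048 fell by 1.03 (adjusted p = 0.0409). With the replicate number as a block neither this probe nor that of RPS6 passed. With each array's percent of bright spots as a covariate 0 of 107 passed, by limma, and without control replicate 1 or HFCSD replicate 1 also 0, so the calls depend on single arrays.

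Array and cell values bear on this comparison. Spots well above background were 38.8% to 39.7% on the HFCSD arrays and 38.9% to 50.2% on the control arrays. The summed erythroid level was 15.81 (0.23) in HFCSD against 14.67 (0.72) in control pigs, and 2 of 4 erythroid probes rose and 0 fell. FRAP1, well above background on 2 of 4 control arrays, rose by 1.58 (SE 0.39, adjusted p = 0.0326), SEC62 A_72_P185261 by 1.95 (SE 0.50, adjusted p = 0.0372) and APOC3 by 1.96 (SE 0.44, adjusted p = 0.0264). Of the translation factors 0 of 36 passed by limma, and none of the T cell, monocyte, neutrophil, platelet and NK cell probes did. The summed neutrophil level was nonetheless 15.97 (0.07) in HFCSD against 15.31 (0.28) in control pigs, without overlap. Their part was not tested.

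HFCSD against HFCD, which differ in sucrose, gave no call for the members by limma: 0 of 106 in WB at 10 weeks (background 0.0%), 0 of 105 at 19 weeks (0.0%), 0 of 107 at 27 weeks (0.0111%) and 0 of 108 in WBC (0.0%). At an unadjusted p under 0.05 these were 1, 1, 5 and 1 probes (0.943% against 4.95%, 0.952% against 1.55%, 4.67% against 12.5% and 0.926% against 2.17% of all probes).

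The third comparison asks how WB changed between 10 and 27 weeks within a diet. Week and scan day go together, so time and day cannot be told apart. In control pigs 38 of 105 probes passed, 32 higher and 6 lower at 27 weeks, 36.2% against 20.7% of all probes. The members' median was 0.30 beside 0.08. In HFCD pigs 8 of 109 passed (7.34%, against 5.6%), 6 higher and 2 lower, and in HFCSD pigs 7 of 105 (6.67%, against 10.3%), 5 higher and 2 lower; their medians were 0.18 and 0.18 beside 0.01 and -0.05. The medians stayed above 0 under each scaling. At an unadjusted p under 0.05 the counts were 43 higher and 14 lower in control, 20 and 5 in HFCD, and 30 and 5 in HFCSD pigs (54.3% against 35.5%, 22.9% against 20.5% and 33.3% against 26.8% of all probes).

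The share in control pigs was above the background, that in HFCD pigs near it and that in HFCSD pigs below it, but the last turned to above with the 75th percentile (34.3% against 8.69%) and with normexp (12.4% against 11.5%). In HFCD pigs it turned to below with the weaker presence call (1.61% against 3.46%), the slide as a random block (1.83% against 3.97%) or without the distant matches (5.38% against 5.6%). Whether the diets differ was tested by the interaction at 27 against 10 weeks: 0 of 109 passed for HFCD (background 0.0%) and 0 of 107 for HFCSD (0.0%), by limma, with 3 and 10 probes at an unadjusted p under 0.05 (2.75% against 2.72% and 9.35% against 14.9%). In control pigs, 13 small-subunit probes rose and 3 fell of 40, and 16 large-subunit probes rose and 3 fell of 47. Of the 4 stalk probes 1 rose, RPLP2 A_72_P350588 by 0.37 (SE 0.13, adjusted p = 0.0397). That RPLP2 call was lost in 13 of 43 alternative fits. Without control replicate 2 of 10 weeks or replicate 4 of 27 weeks 25 passed, 20 higher and 5 lower (23.8% against 14.7% and 23.1% against 15.9% of all probes), and the share stayed above that of all probes in each fit tried. In HFCSD pigs the 75th percentile gave 36 higher and 0 lower, and normexp 12 higher and 1 lower, in place of 5 and 2. In HFCD pigs normexp gave 8 higher and 1 lower, in place of 6 and 2.

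RPL23, a protein at the face between the subunits, rose by all 3 of its probes, which share 49 to 52 bases and are no independent evidence. A_72_P402918 measured 12.42, 11.20, 11.51 and 10.01 in control pigs at 10 weeks and 13.14, 11.74, 13.94 and 14.40 at 27 weeks. The groups overlapped, since the lowest array at 27 weeks was below the highest at 10 weeks. The change was 2.02 (SE 0.48, adjusted p = 0.00435), and A_72_P281899 and A_72_P209402 rose by 2.07 and 1.90.

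The largest fitted rises in control pigs came from vertebrate-match probes of RPL37, RPS24 and RPL34. RPL37 A_72_P174431 measured 3.90, 4.27, 1.53 and 2.55 at 10 weeks and 6.53, 3.72, 7.04 and 8.13 at 27 weeks, and RPS24 A_72_P233302, a gene of inherited anemia, 4.92, 4.30, 4.03 and 1.59 and 5.96, 3.86, 7.90 and 8.90. At 10 weeks 1 of 4 and 2 of 4 arrays were well above background, the values varied widely within a group, and the groups overlapped. The sizes of these rises and their rank are therefore uncertain. RPL37 rose by 3.29 (SE 0.83, adjusted p = 0.00644), RPS24 by 2.95 (SE 0.73, adjusted p = 0.00529) and RPL34, well above background on 2 of 4 arrays at 10 weeks, by 2.52 (SE 0.64, adjusted p = 0.00688). These probes were tested through their 27-week arrays alone, so these p values are no independent support. RPS24 also rose in HFCSD pigs, from 4.58, 2.87, 5.47 and 3.81 to 6.67, 6.71 and 7.27, by 2.70 (SE 0.78, adjusted p = 0.0284), with no overlap. There too it was not well above background on every array at 10 weeks. It was thus tested through the 27-week arrays alone, and its p is no independent support.

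Other genes rose by more than 1 probe. In control pigs 2 tested probes of RPS29 rose, by 1.19 and 1.26, and of RPL39 all 3, by 1.05, 1.15 and 1.86. Of RPL36A both rose, by 1.36 and 1.33, and of RPS12 both, by 0.52 and 0.66. The array names A_72_P077981 RPL36A, while its reference sequence carries the symbol RPL36AL. The probes of RPS29 share 40 bases, of RPL36A 21 and of RPS12 54; only those of RPL39 share no run. RPL11 A_72_P041441 rose by 0.71 (SE 0.18, adjusted p = 0.00705).

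RPS21, of the small subunit, was the gene that rose in all 3 diets by the same probe, A_72_P015451. It measured 15.05, 14.85, 14.67 and 14.65 at 10 weeks and 15.08, 15.14, 15.49 and 15.83 at 27 weeks in control pigs, 14.80, 14.65, 14.68 and 14.64 and 15.30, 15.25 and 15.56 in HFCD pigs, and 14.99, 14.84, 14.72 and 14.66 and 15.61, 15.52 and 15.44 in HFCSD pigs. In each diet every array at 27 weeks was above every array at 10 weeks, narrowly so in control pigs. The changes were 0.58 (SE 0.18, adjusted p = 0.0204), 0.68 (SE 0.19, adjusted p = 0.035) and 0.72 (SE 0.19, adjusted p = 0.0162). These calls were lost in 5 of 43, 11 of 43 and 2 of 43 alternative fits; in HFCD pigs no member's rise passed with the weaker presence call or with the slide as a block. Its other probes, which share 45 to 54 bases with it, rose by 0.70 and 0.64 in HFCD and 0.68 and 0.61 in HFCSD pigs.

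RPL5 was the gene that fell in all 3 diets. At 10 weeks its arrays measured 14.51, 13.69, 14.55 and 13.94 in control, 14.02, 13.83, 14.01 and 14.62 in HFCD and 14.14, 13.22, 14.33 and 14.31 in HFCSD pigs, against the 27-week WB values given above. In HFCD and HFCSD pigs all arrays at 27 weeks were below those at 10 weeks; in control pigs the highest at 27 weeks was above the lowest at 10 weeks. It fell by 1.05 (SE 0.32, adjusted p = 0.0201), 1.31 (SE 0.34, adjusted p = 0.0228) and 1.17 (SE 0.34, adjusted p = 0.0294). These RPL5 calls were lost in 5 of 43, 3 of 43 and 8 of 43 alternative fits. The fall and the rise in WBC both rest on the 27-week WB arrays, so they are not independent.

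RPSA fell by 2 of its 4 probes in control pigs. They are printed because they lie apart in the coding sequence and gave a like result.
RPSA A_72_P004351: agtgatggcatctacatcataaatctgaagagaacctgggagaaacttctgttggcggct
RPSA A_72_P039131: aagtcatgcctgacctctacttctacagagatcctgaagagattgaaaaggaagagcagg
The first measured 12.95, 12.69, 13.09 and 12.64 at 10 weeks and 11.13, 12.12, 11.98 and 11.56 at 27 weeks. All arrays at 27 weeks were below those at 10 weeks. They changed by -1.15 (SE 0.22, adjusted p = 6.8e-04) and -0.79 (SE 0.22, adjusted p = 0.0139), while A_72_P004916 and A_72_P209232 had -0.15 (SE 0.12, adjusted p = 0.408) and a value near 0 (adjusted p = 0.981). RPS4 A_72_P114626 fell by 0.95 (adjusted p = 0.00255) and RPL10 A_72_P052661 by 0.68 (adjusted p = 0.0104).

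Of the other calls in the diets, RPS26 A_72_P350879, a protein at the exit of the message, rose by 0.75 (SE 0.23, adjusted p = 0.0449) in HFCD pigs. The distant matches A_72_P386063 and A_72_P212167 rose there by 0.55 and 0.85, and A_72_P115086 fell by 0.93 in HFCD and 0.77 in HFCSD pigs, where A_72_P381638 rose by 0.86. The calls of RPS26, A_72_P386063 and A_72_P381638 were lost in 22 of 43, 30 of 43 and 18 of 43 alternative fits. Without HFCD replicate 3 of 27 weeks 0 of the HFCD calls passed, and without HFCSD replicate 4 of 10 weeks or HFCSD replicate 1 of 27 weeks 0 of the HFCSD calls did, by limma.

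Between 10 and 27 weeks all calls among translation factors and other messages with a pyrimidine start were lower. Of 36 probes tested, 0 rose and 20 fell in control, 0 and 15 in HFCD, and 0 and 12 in HFCSD pigs, with medians of -0.75, -0.78 and -0.73, below 0 under each scaling. EEF1A1, which brings transfer RNA to the ribosome, fell by 2.28 in control pigs by A_72_P101186 (adjusted p = 3.2e-05), and EIF4A3, of the exon junction complex, by 2.31 (adjusted p = 1.9e-05). Of the mitochondrial ribosomal protein probes 2 of 13 fell in control pigs, 0 of 13 in HFCD and 0 of 14 in HFCSD pigs by limma. The assembly, S6 kinase and translocon probes did not pass.

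Of the T cell probes tested, 6 of 12 fell in control, 4 of 13 in HFCD and 3 of 12 in HFCSD pigs in the same comparison, and none rose, with a summed level of 13.66 (0.17) at 10 and 13.14 (0.22) at 27 weeks in control pigs. CCR7, a homing receptor of naive T cells, fell by 1.80, 1.86 and 1.43. The NK receptor KLRK1 rose by 2.15 in control and 1.82 in HFCD pigs. Erythroid, platelet, neutrophil, monocyte and liver probes did not pass; the summed erythroid level in control pigs was 15.51 (0.40) at 10 and 14.67 (0.72) at 27 weeks. The part of these cell types in the ribosomal protein values was not tested.

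The last comparison asks whether a diet changed WBC and WB to a different degree at 27 weeks. For HFCD 0 of 111 probes passed (background 0.0%) by limma, with 1 higher and 1 lower at an unadjusted p under 0.05 (1.8% against 1.33% of all probes). For HFCSD 2 of 113 passed, 1.77% against 1.38% of all probes. RPS25 A_72_P065286 measured 6.85, 6.50, 6.93 and 6.86 in control and 5.23, 6.51 and 5.96 in HFCSD WB, beside the WBC values given above. In WB 2 of the 3 HFCSD arrays were below all control arrays, in WBC all HFCSD arrays were above, and the difference of the changes was 1.76 (SE 0.36, adjusted p = 0.026). A_72_P003561 passed with an adjusted p of 0.0265. Of the 4 groups it was well above background in HFCSD WB alone. It was thus tested through that group alone, so no size is given and its p is no independent support. Without the distant matches 1 of 95 passed, against 1.38% of all probes. The members' median difference was 0.35 beside 0.27 over all probes; relative to all probes it was 0.08, and -0.12 with the 75th percentile. Normexp moved the median of all probes by -0.15, and relative to it the members' median was 0.20, with 4 calls higher and 4 lower (7.08% against 4.12% of all probes). The 75th percentile gave 1 higher and 0 lower, and the deposited series values 1 higher and 2 lower. By limma neither call remained without WB control replicate 1 or 3, WB HFCSD replicate 1, WBC control replicate 4 or WBC HFCSD replicate 4. Nor did either remain in a single fit of all arrays or with each array's percent of bright spots as a covariate.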

How the data were processed

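RNA of 45 samples (33 of whole blood, 12 of isolated white blood cells) was measured with 1 porcine array of 45220 spots each. Per the file headers, the deposited spot intensities were extracted with Feature Extraction 10.5.1.1, which subtracted background and detrended each array without normalizing between arrays. The authors' series table holds intensity values on a linear scale, quantile normalized in GeneSpring; the software's presence and outlier calls, other values per the file headers, are 0 or 1. The processed signals were put on the log2 scale, quantile normalized over the 45 arrays, and the spots of a probe averaged, leaving out spots called outliers.

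Changes were fitted per probe with limma 3.58.1 in R 4.3.3 (empirical Bayes moderated statistics), in 22 comparisons, unpaired, with at least 2 usable arrays per group. A probe was tested where it was well above background on all usable arrays of at least 1 group compared. Adjusted p is Benjamini-Hochberg over all probes tested, with a threshold of 0.05, and no p was adjusted over the ribosomal proteins alone. The fit was tested on simulated data. Tables were made with Python 3.11.15, pandas 2.3.3, numpy 2.4.6 and scipy 1.17.1; the R script also used the package data.table (version 1.17.8).

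A contig counted as a vertebrate match where its description gives a match over at least 20% of a vertebrate protein. The genes named are a fixed set of ribosomal proteins whatever their values, the probes past the threshold in a comparison (the 5 largest rises and falls where over 10 passed, the 3 largest where under 5 did), genes with 3 or more probes, and of each list those past the threshold (the 2 largest each way where over 4 passed). Some items under these rules are not reported here. The members and lists were chosen with earlier results of these data known. Alternatives tried were scaling to the 75th percentile, normexp background correction with an offset of 50, the deposited series values, other filters on dim probes, a single fit of all arrays, blocks for slide, scan day and replicate number, each array's percent of bright spots as a covariate, gene means, other member rules, the per-probe test the methods name, and leaving out each array. No sample was left out of the main fits. Which transcripts each probe matches was not computed, for want of pig transcript sequences.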

Additional observations from a re-analysis of the deposited data

Results flagged for a closer look

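In groups of 4 arrays, a value far from the other 3 was looked for among the probes whose values are printed, in 59 groups. Chance flags about 1 in 20 groups, and 3 were found. RPS6 A_72_P115986 measured 9.56 in WB control replicate 1 at 27 weeks, against 10.36 to 10.49 in the other 3 arrays. RPL4 A_72_P361473 measured 4.31 in WBC control replicate 2, against 5.16 to 5.21. RPS23 A_72_P254247 measured 17.33 in WBC HFCSD replicate 1, where the other 3 arrays had 17.28 each: quantile normalization gives probes of the same rank the same value, and this probe lies near the top rank.

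By the test of the difference, 2 of 113 probes responded to HFCSD differently in WBC and WB at 27 weeks. That share is near the 1.38% of all probes. For RPS25 A_72_P065286 the difference was 1.76, the value with HFCSD being higher in WBC and lower in WB. For A_72_P003561, a distant match, the fitted difference was -3.14, but it was well above background in none of the WB control, WBC control and WBC HFCSD arrays, so its size is not known. Neither passed without WB control replicate 1 or 3, WB HFCSD replicate 1, WBC control replicate 4 or WBC HFCSD replicate 4 of 27 weeks. The same held in a single fit of all arrays and with each array's percent of bright spots as a covariate. Causes were not tested.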

How the results depend on the processing

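Of the probes named, 1716 repeats under other alternatives kept their direction and side of the threshold, 212 lost the call, 10 gained it and 11 reversed. With single arrays left out, 4319 kept it and 378 lost it. Unless said otherwise, the cause was not tested.

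All 11 reversals came with scaling to the 75th percentile, in WBC against WB: RPS3 A_72_P030796 (-0.0912 in HFCD and -0.58 in HFCSD pigs), RPL37 A_72_P031251 (-0.58, HFCSD), RPL10 A_72_P061141 (-0.0023 in control and -0.49 in HFCSD), RPL27 A_72_P086246 (-0.0255, HFCSD), RPS23 A_72_P254247 (-0.19 in control and -0.12 in HFCSD), RPL27A A_72_P281649 (-0.93, HFCSD), RPS16 A_72_P328738 (-1e-04, control) and RPL3 A_72_P436964 (-0.35, HFCSD). With it the members' median became -0.16 for HFCD in WB at 10 weeks, 0.23 for HFCSD in WB at 27 weeks, 0.19 for HFCSD in WBC, 0.32 for HFCSD against HFCD in WB at 27 weeks and 0.0173 in WBC, 0.0818 for WBC against WB in HFCSD pigs, 0.35 for 27 against 10 weeks in HFCD and 0.62 in HFCSD pigs, 0.29 for the HFCSD difference between weeks and 0.0737 for that between WBC and WB. The levels relative to the mean of all arrays became -0.37 (WB HFCD, 10 weeks), -0.0855 (WB control, 19 weeks), 0.34 (WB HFCSD, 27 weeks) and 0.24 (WBC HFCSD). Calls became 36 for 27 against 10 weeks in HFCSD pigs (34.3% against 8.69% of all probes) and 1 for the HFCSD difference between WBC and WB (0.885% against 0.422%).

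With the 153 probes in place of the 91, the relative levels were 0.15 in WBC HFCD, 0.22 in WBC HFCSD and -0.0378 in WB control at 19 weeks. Members chosen by gene name alone are fewer, so fewer can pass: 11 of 44, 12 of 44 and 25 of 45 in WBC against WB in control, HFCD and HFCSD pigs (25% against 45.3%, 27.3% against 47.5% and 55.6% against 58.8% of all probes), 16 of 43, 5 of 44 and 4 of 43 for 27 against 10 weeks (37.2% against 20.7%, 11.4% against 5.6% and 9.3% against 10.3%), 1 of 43 for HFCSD in WB at 27 weeks (2.33% against 10.6%) and 0 of 45 for the HFCSD difference between WBC and WB (0% against 1.38%). Their medians were 0.28 for HFCSD in WB at 19 weeks, 0.39 for HFCSD in WBC, 0.12 for HFCSD against HFCD in WBC and 0.60 for WBC against WB in HFCSD pigs.

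For HFCSD in WB at 27 weeks, in place of 6 calls there were 2 without a filter (1.31% against 1.04%), 0 with the percent of bright spots as a covariate and 0 by the methods' test adjusted. That test unadjusted gave, for HFCD, 3, 6 and 2 in WB at 10, 19 and 27 weeks and 16 in WBC (2.8% against 8.97%, 5.77% against 11%, 1.89% against 5.55% and 15% against 4.9% of all probes), and for HFCSD 5, 16, 26 (8 higher and 18 lower) and 39 (4.95% against 1.81%, 15.2% against 16.1%, 24.3% against 27.5% and 35.8% against 10.4%). For 27 against 10 weeks in HFCD pigs, in place of 8, there were 2 with the weaker presence call (both lower; 1.61% against 3.46%), 3 without a filter (1.96% against 1.62%), 2 with the slide as a random block (both lower; 1.83% against 3.97%) and 4 with gene means (5.06% against 4.94%). In HFCSD pigs, in place of 7, there were 13 with normexp (12.4% against 11.5%), 2 without a filter (1.31% against 4.02%), 11 with a fit of all arrays (11 of 105 against 11.2%) and 1 with the covariate (0.952% against 6.25%). For the HFCSD difference between WBC and WB, in place of 2, there were 8 with normexp (7.08% against 4.12%), 0 with a fit of all arrays (0% against 0.00981%) and 0 with the covariate (0% against 0.00981%). A fit of all arrays gave 1 call for HFCSD in WBC (0.917% against 0.408%). WBC against WB in HFCSD pigs had 39 calls (34.8% against 31.4%) and a median of 0.34 with the covariate, and a median of 0.26 without a filter, where that of HFCSD in WBC was 0.19.

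Chosen after seeing the data were leaving out the distant matches, which gave 2 calls for HFCSD in WB at 27 weeks (2.2% against 10.6%), 5 for 27 against 10 weeks in HFCD pigs (5.38% against 5.6%) and 1 for the HFCSD difference between WBC and WB (1.05% against 1.38%), and using scan day 3 alone at 19 weeks, which gave 0 calls by limma and medians of 0.11 for HFCD and 0.24 for HFCSD. With day 3 alone, control has 1 array, assumed to vary like the others.

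With each array left out, calls ranged from 0 to 7 for HFCSD in WB at 27 weeks (0 without control replicate 1 or HFCSD replicate 1; 1 without control replicate 2 or 3 or HFCSD replicate 2; 2 without HFCD replicate 3). For 27 against 10 weeks they ranged from 25 to 47 in control pigs (25 without control replicate 2 of 10 weeks or replicate 4 of 27 weeks). In HFCD pigs they ranged from 0 to 9: 0 without HFCD replicate 3 of 27 weeks, 1 without HFCD replicate 2, 3 or 4 of 10 weeks, 2 and 3 without HFCD replicates 1 and 2 of 27 weeks, 3 without HFCD replicate 1 of 10 weeks, and 5 without control replicate 3 or HFCSD replicate 3 or 4 of 10 weeks. In HFCSD pigs they ranged from 0 to 11: 0 without HFCSD replicate 4 of 10 or 1 of 27 weeks, 1 without replicate 2 of 27 weeks, 2 without replicate 3 of 10 weeks, 4 without replicate 1 of 10 or 3 of 27 weeks, and 11 without HFCD replicate 1 of 19 weeks or control replicate 2 of 27 weeks. For the HFCSD difference between WBC and WB they ranged from 0 to 8: 0 without WB control replicate 1 or 3, WB HFCSD replicate 1, WBC control replicate 4 or WBC HFCSD replicate 4, 1 without WB control replicate 2, 4 without WB HFCD replicate 1 or WBC HFCD replicate 2, and 8 without WB control replicate 4. With an array left out, the members' share of calls for 27 against 10 weeks stayed above that of all probes in control pigs, turned to below in 11 of 33 fits in HFCD pigs and to above in 1 of 33 in HFCSD pigs. It turned to above in 2 of 10 for HFCSD in WB at 27 weeks and to below in 7 of 22 for the HFCSD difference between WBC and WB. Medians ranged from 0.14 to 0.28 for HFCSD in WB at 19 weeks (highest without HFCSD replicate 1) and from 0.057 to 0.34 for WBC against WB in HFCD pigs (lowest without WB HFCD replicate 2).

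With the replicate number as a block, calls were 38, 42 and 60 for WBC against WB in control, HFCD and HFCSD pigs, 39, 6 and 6 for 27 against 10 weeks, 6 for HFCSD in WB at 27 weeks (6 higher and 0 lower, in place of 5 and 1, since RPS6 A_72_P115986 and A_72_P334048 lost the call and others gained it) and 3 for the HFCSD difference between WBC and WB; 16 of 22 counts were equal to those without the block. Samples with the same number are not shown to be pairs: between diets, 15 of 43 such pairs had a correlation over 0.1, between weeks 20 of 31 and between WB and WBC 6 of 10, so the pairing is not settled.

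Groups of 3 or 4 arrays and spots near background limit what can be called: 28 of the 153 probes were never well above background. Scan day, kit and sample type go together between WBC and WB, and scan day and week go together in WB.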
